A study of Mus with 21 samples.

Results

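*Lcor* (ENSMUSG00000025019.17) and its paralog *Lcorl* (ENSMUSG00000015882.18) were followed through 21 RNA-seq libraries of whole brain from female mouse embryos at E17.5. The members are the 2 rows of the deposited count table that carry these names, of 55335 genes listed, and both were among the 30552 genes with enough counts to be tested. *Lcor* was chosen by its low normalized count in *Wapl* Δ/+ against *WT* brains, so its values against *WT* or *Wapl* Δ/+ libraries are given below as a description, without a test. *Lcorl* is included as its paralog and was tested in every comparison.

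The 4 groups were 5 *WT* brains (*Wapl* +/+; *Nipbl* +/+), 7 *Wapl* Δ/+ brains (*Wapl* delta/+ or +/delta; *Nipbl* +/+), 3 *Nipbl* +/- brains (labelled *Wapl* +/+; *Nipbl* +/delta) and 6 double heterozygotes, which carry 1 deleted allele of each gene. All were females of one age, and each library was made from the poly(A) RNA of a whole brain. The *Wapl* Δ allele lacks the promoter through exon 2 and was carried in animals backcrossed to C57BL/6J. The *Nipbl* - allele was made in the sires' germ cells by *Stra8-icre*. The embryos came from 2 crosses, and the litter of each embryo is not given in the labels. The study asked how the loss of 1 copy of *Wapl*, whose protein takes cohesin off chromosomes, acts alone and together with the loss of 1 copy of *Nipbl*, whose protein loads it.

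LCOR, the ligand-dependent corepressor, binds nuclear hormone receptors that hold their ligand and brings repressors to the genes they occupy, among them the CtBP proteins and histone deacetylases. The *Lcor* and *Lcorl* genes also encode long proteins that join the Polycomb repressive complex PRC2, which methylates histone H3. The region of *Lcorl* is widely known from genetic studies of body size in mammals.

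On GRCm38.p6, *Lcor* lies on chromosome 19 from 41482682 to 41596161, a span of 113480 bp, and *Lcorl* on chromosome 5 from 45697181 to 45857835, a span of 160655 bp. *Wapl* is on chromosome 14 and *Nipbl* on chromosome 15, so neither member shares a chromosome with a targeted gene. Both spans overlap other gene models, and the strand setting of the counting is not given in the sources used here. The span of *Lcor* holds the microRNA gene *Mir8091*, which averaged 9.88 normalized counts. The lower-coordinate end of the *Lcorl* span overlaps *Ncapg*, a condensin subunit that averaged 540 normalized counts. Exon lengths were not at hand, so the level of *Lcor* is nowhere compared with that of *Lcorl*.

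Total counts on genes ran from 25682566 to 35818767 per library (median 31830396). The targeted genes followed the labels. In *Wapl* Δ/+ brains *Wapl* stood at 46.7% of the *WT* mean (SD 4.51, n = 7), and in double heterozygotes at 49.4% (SD 1.90, n = 6). In *Nipbl* +/- brains *Nipbl* stood at 54.3% (SD 4.52, n = 3), and in double heterozygotes at 54.8% (SD 1.79, n = 6). By their counts of the mitochondrial gene *mt-Nd3*, 9 libraries were high and 12 low. In 13 of 13 libraries with a *Wapl* deletion, the set follows the order in which the labels write the *Wapl* alleles, and all 3 *Nipbl* +/- libraries are in the low set. Every marker of neurons, progenitors, astrocytes, the oligodendrocyte lineage and microglia on the lists used was detected in every group. Normalized counts below are counts scaled by edgeR's TMM factors to the mean library size.

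*Lcor* was lower in *Wapl* Δ/+ and in *Nipbl* +/- brains than in any *WT* brain, and double heterozygotes ranged from below the lowest to above the highest *WT* brain. *WT* replicates 1 to 5 had 144, 182, 123, 127 and 204 normalized counts of *Lcor*, a mean of 156 ± 35.5 (SD, n = 5). These came from raw counts of 161, 177, 125, 131 and 204, so counting error alone would give a coefficient of variation of 8.02%, against the 22.8% measured.

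In *Wapl* Δ/+ brains, *Lcor* ran from 47.0 (replicate 4) through a median of 65.8 (replicate 7) to 115 normalized counts (replicate 2), with a mean of 72.4 ± 22.5 (SD, n = 7). That mean was 46.4% ± 14.4 (SD) of the *WT* mean, and 7 of 7 *Wapl* Δ/+ libraries lay below every *WT* library. The highest of them, replicate 2, lay close to the lowest *WT* library, while the other 6 held at most 88.9 normalized counts. Across all genes tested, 0.471% had *Wapl* Δ/+ libraries that all lay below the *WT* libraries. The log2 fold change of *Lcor* was -1.11 (SE 0.17), the value for which the gene was chosen. Within the low *mt-Nd3* set (3 *WT* and 2 *Wapl* Δ/+ libraries) it was -0.80, and within the high set (2 and 5) -1.31.

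The 3 *Nipbl* +/- brains had 72.6, 72.9 and 119 normalized counts of *Lcor*. Replicates 1 and 2 were nearly equal and replicate 3 was higher, yet 3 of 3 lay below every *WT* library, at a mean of 56.5% ± 17.0 (SD, n = 3) of *WT*. This comparison shares the *WT* libraries with the one that singled *Lcor* out. Its log2 fold change was -0.83 (SE 0.18), or -0.77 against the *WT* libraries of the low *mt-Nd3* set alone, and 6.90% of all genes tested had *Nipbl* +/- libraries that all lay below the *WT* libraries.

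*Lcor* spread more widely in double heterozygotes than in the other groups. Replicates 1 to 6 had 78.0, 99.9, 147, 151, 228 and 49.5 normalized counts of *Lcor*, a mean of 126 ± 63.7 (SD, n = 6). Of these, 3 lay below the lowest *WT* library, 2 within the *WT* range and 1 above it. The highest, replicate 5, had 4.60 times the normalized count of the lowest, replicate 6, and these are the only double heterozygotes of the high *mt-Nd3* set. The coefficient of variation was 50.7%, where counting error alone would give 9.86%. The standard deviation of the log2 values was 0.77 in double heterozygotes, 0.32 in *WT*, 0.41 in *Wapl* Δ/+ and 0.40 in *Nipbl* +/- brains.

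**Figure D1:**
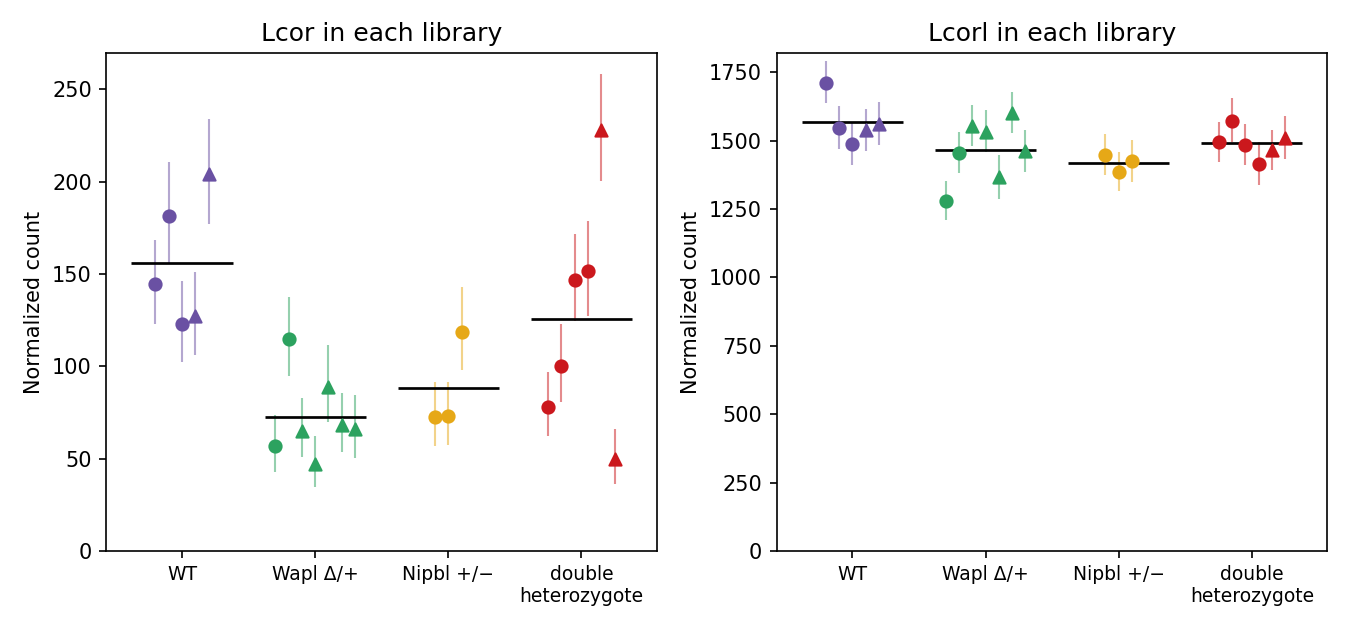
Normalized counts of *Lcor* (left) and *Lcorl* (right) in each of 21 libraries by genotype, with vertical bars for the 95% counting (Poisson) interval of each library and black lines for group means. Circles mark libraries of the low and triangles those of the high *mt-Nd3* set. All *Wapl* Δ/+ and *Nipbl* +/- points of *Lcor* sit below the lowest *WT* point at 123, while double heterozygotes spread from 49.5 to 228.

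The double-heterozygote mean was 80.5% ± 40.9 (SD, n = 6) of *WT*, a log2 fold change of -0.29 (SE 0.25) that rests on single brains. Without double-heterozygote replicate 5 it was -0.56, without replicate 6 it was -0.13, without replicate 1 it was -0.18, and without *WT* replicate 5 it was -0.18. Against *Wapl* Δ/+ brains, *Lcor* stood 0.81 (SE 0.26) higher in double heterozygotes on the log2 scale, with overlapping groups, and the value was 0.47 within the low and 1.09 within the high *mt-Nd3* set. The interaction of the genotypes, which is the *Wapl* effect in *Nipbl* +/- brains minus that in *Nipbl* +/+ brains, was 1.61 (SE 0.40) for *Lcor*. All 3 of these values share libraries with the comparison that singled out *Lcor*.

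Double heterozygotes against *Nipbl* +/- brains is the one comparison that used neither *WT* nor *Wapl* Δ/+ libraries, and *Lcor* was tested there. The log2 fold change was 0.53 (SE 0.35, 95% interval -0.20 to 1.27, edgeR adjusted *P* = 0.971). Of the double heterozygotes, 3 of 6 libraries lay above the highest *Nipbl* +/- library, 2 within the *Nipbl* +/- range and 1 below it. The interval held 0 and the difference was within the spread between brains. It fell to 0.26 without double-heterozygote replicate 5. In this comparison, 0.00655% of the genes tested were called at an adjusted *P* below 0.10, the threshold used throughout. The 2 genes called were *Wapl* and *Pcdhb17*, which were looked up after the result was known.

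In order of mean level, *Lcor* was highest in *WT*, then in double heterozygotes, then in *Nipbl* +/- and lowest in *Wapl* Δ/+ brains. The ranges of each pair of neighbours in this order overlapped. In whole brain, fewer *Lcor*-expressing cells and less *Lcor* RNA per cell cannot be told apart.

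*Lcorl* varied far less, and every group mean stayed above 90% of the *WT* mean. *WT* replicates 1 to 5 had 1712, 1545, 1486, 1537 and 1562 normalized counts, a mean of 1568 ± 85.2 (SD, n = 5), and replicate 1 stood above the other 4. *Nipbl* +/- brains had 1448, 1386 and 1424 normalized counts, a mean of 1420 ± 31.4 (SD, n = 3) or 90.5% of *WT*, and 3 of 3 lay below every *WT* library. The same held for 6.90% of all genes tested.

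*Lcorl* fell in *Nipbl* +/- brains by 0.15 on the log2 scale (SE 0.045, edgeR adjusted *P* = 0.0496). In that comparison 11.2% of all genes were called, 6.96% in this direction, so a call there is common. The call was lost without *WT* replicate 1, the highest library (log2 fold change -0.11, adjusted *P* = 0.154), without *Nipbl* +/- replicate 3 (-0.14, adjusted *P* = 0.146), within the low *mt-Nd3* set (-0.16, adjusted *P* = 0.140) and in one fit of all 4 groups (-0.12, adjusted *P* = 0.251). Over the alternatives run, the adjusted *P* of edgeR or DESeq2 ranged from 0.0397 to 0.251.

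In *Wapl* Δ/+ brains *Lcorl* ran from 1279 (replicate 1) through a median of 1461 to 1601 normalized counts (replicate 6), a mean of 1464 ± 112 (SD, n = 7). The 4 lowest libraries lay below the *WT* range and the other 3 inside it, and 2.22% of all genes were called in this comparison. The log2 fold change of -0.09 (SE 0.048, 95% interval -0.20 to 0.01, adjusted *P* = 0.351 from edgeR) did not pass the test. Within the low *mt-Nd3* set it was -0.21 and within the high set -0.04, neither of which passed.

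Double heterozygotes had 1493, 1573, 1485, 1415, 1466 and 1511 normalized counts of *Lcorl*, a mean of 1490 ± 52.2 (SD, n = 6). Replicates 3, 4 and 5 lay below the *WT* range. Differences were -0.06 (SE 0.040, 95% interval -0.15 to 0.02, adjusted *P* = 0.532) against *WT*, 0.08 (SE 0.048, -0.03 to 0.18, adjusted *P* = 0.971) against *Nipbl* +/- and 0.03 (SE 0.048, -0.07 to 0.13, adjusted *P* = 0.892) against *Wapl* Δ/+ brains on the log2 scale, all from edgeR. None passed, where 3.28%, 0.00655% and 1.02% of all genes were called. The last one turned to -0.01 within the high *mt-Nd3* set.

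For *Lcorl* the interaction of the genotypes was 0.14 on the log2 scale (SE 0.069, 95% interval 0.00 to 0.29, adjusted *P* = 0.357 from edgeR). EdgeR called 0 of the genes tested for interaction and found 4221 at an unadjusted *P* below 0.05, while DESeq2 called 793, without *Lcorl*. By mean level *Lcorl* was highest in *WT*, then in double heterozygotes, in *Wapl* Δ/+ and in *Nipbl* +/- brains, and each pair of neighbours in this order overlapped.

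**Figure D2:**
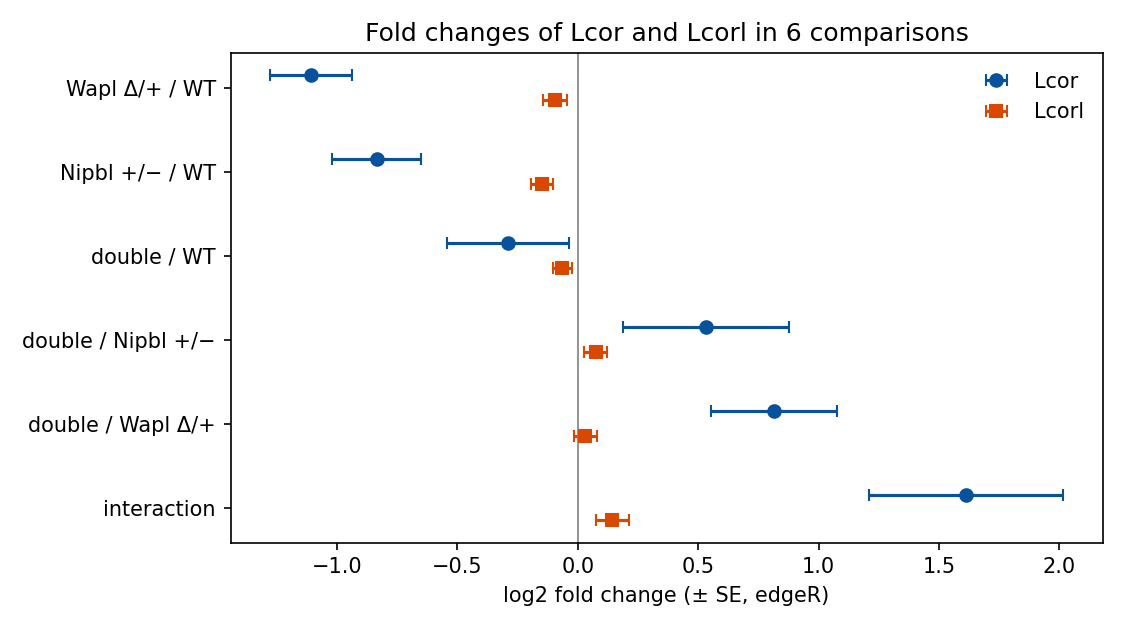
Log2 fold changes of *Lcor* (circles) and *Lcorl* (squares) with their standard errors in 5 comparisons of 2 groups and for the interaction, from edgeR fits. *Lcor* runs from -1.11 in *Wapl* Δ/+ over *WT* to 1.61 for the interaction, and *Lcorl* stays between -0.15 and 0.14 throughout. Values of *Lcor* other than double over *Nipbl* +/- are a description.

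The paralogs also differed in how much they varied among brains of 1 genotype. The coefficient of variation that edgeR estimates between brains, once counting error is taken out, was 0.290 for *Lcor*. Among the 1000 genes nearest to it in mean level the median was 0.0919, and 98.5% of them varied less. *Lcorl* had 0.0506 beside a median of 0.0501 for its own 1000 neighbours in level, and 52.1% of those varied less.

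**Figure D3:**
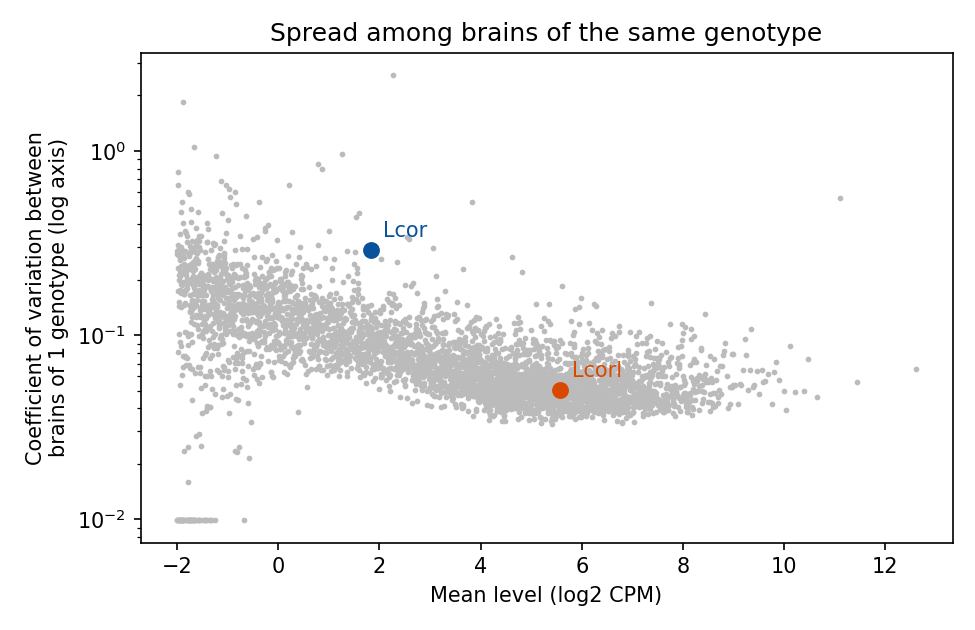
Coefficient of variation between brains of 1 genotype (log axis) against mean level in log2 CPM (counts scaled to a common library size), for 4248 genes taken at even steps of mean level (grey), *Lcor* (blue) and *Lcorl* (orange). *Lcor* at 0.290 stands near the top of the genes of its level, and *Lcorl* at 0.0506 in the middle of its own. Points in a row at the lower left are genes at the smallest value edgeR estimated.

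Over the 21 libraries, many other genes were high and low in the same brains as *Lcor*. Likeness was measured as Pearson's r over log2 CPM (counts scaled to a common library size), among the 17302 genes that averaged 1 CPM or more. The 5 genes most like *Lcor* were *Chd8*, a chromatin remodeller (r = 0.91), *Shc3*, a signalling adaptor of neurons (r = 0.91), *Tenm3*, a teneurin that acts in synaptic wiring (r = 0.90), the gene model *Gm37121* (r = 0.90) and *Macf1*, a linker of microtubules and actin (r = 0.90). With the group means taken out, these 5 had r between 0.84 and 0.86. They were picked by r over these same libraries, so those values are no separate test of the likeness.

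Of these 5, *Shc3* had the widest range in fold terms. Its normalized counts averaged 454 in *WT*, 164 in *Wapl* Δ/+, 172 in *Nipbl* +/- and 302 in double-heterozygote brains. In the double heterozygotes it was highest in replicate 5, at 610, and lowest in replicate 6, at 70.6, the brains with the highest and lowest *Lcor*. *Wapl* Δ/+ replicate 2, the highest for *Lcor* in its group, also had the group's highest *Shc3*, at 453, and the next highest *Wapl* Δ/+ library had 137.

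*Chd8* showed the same brains at its ends over a narrower range. It averaged 5715, 4728, 5127 and 5491 normalized counts in *WT*, *Wapl* Δ/+, *Nipbl* +/- and double-heterozygote brains, and ran from 4463 in replicate 6 to 6242 in replicate 5 of the double heterozygotes. *Macf1* averaged 14960, 12930, 13440 and 14620 normalized counts in the same order of groups, and *Tenm3* 4868, 3432, 3884 and 4396.

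The 3 genes most opposed to *Lcor* were *Hvcn1*, a voltage-gated proton channel (r = -0.89), *Sox7*, a transcription factor of endothelium (r = -0.87), and *Lamb2*, a laminin of basement membranes (r = -0.86). *Hvcn1* averaged 596 normalized counts in *WT* and 616 in double heterozygotes, below its 680 in *Wapl* Δ/+ and 683 in *Nipbl* +/- brains. In all, 156 genes had r above 0.8 with *Lcor* and 21 had r below -0.8. The 1st and 99th percentiles over all genes ranked were -0.72 and 0.79, so many genes followed *Lcor* nearly as closely as those named.

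**Figure D4:**
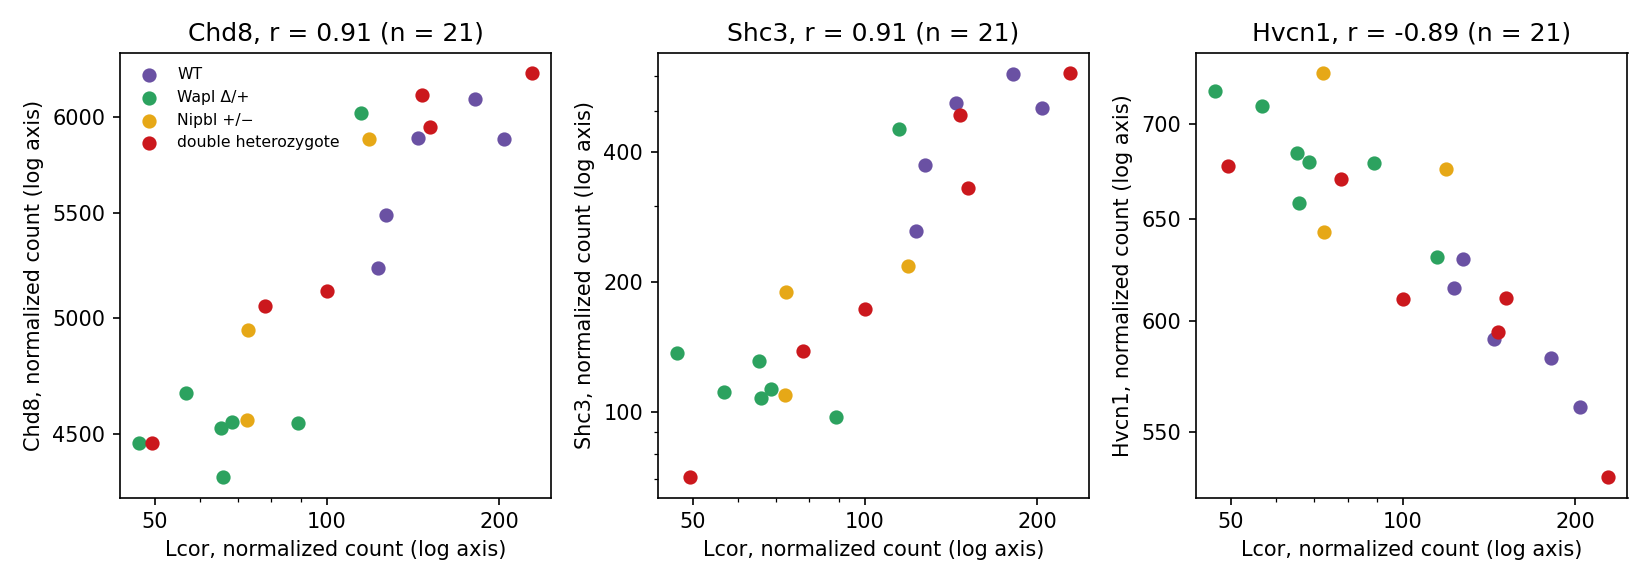
*Chd8*, *Shc3* and *Hvcn1* against *Lcor* in 21 libraries, as normalized counts on log axes and colored by genotype. On the *Lcor* axis all *WT* points lie above all *Wapl* Δ/+ and *Nipbl* +/- points. Double heterozygotes spread over nearly the whole range of *Lcor*, and *Hvcn1* runs the opposite way.

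*Lcorl* had other companions. The 5 genes most like it were *Trim23*, a ubiquitin ligase (r = 0.90), the gene model *Gm49336* (r = 0.88), *Appl1*, an adaptor of early endosomes (r = 0.87), *Zbtb41*, a zinc finger protein (r = 0.86), and *Dnm1l*, the GTPase of mitochondrial fission (r = 0.85). The 3 most opposed were *Rfc3*, a subunit of the clamp loader of DNA replication (r = -0.80), *Rnf220*, a ubiquitin ligase (r = -0.79), and *Timm29*, a mitochondrial import protein (r = -0.77). Between the paralogs themselves r was 0.22 (Spearman's rho 0.12, n = 21), and -0.15 with group means taken out.

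Genes whose levels followed either member tended to have long spans. The median span was 98.99 kb for the 100 genes most like *Lcor* (84 with a span in the reference) and 13.9 kb for the 100 most opposed (89 with one), beside 23.0 kb for the 15453 ranked genes with a span. For *Lcorl* these medians were 64.7 kb and 8.92 kb. Counts on genes with spans of at least 100 kb, both members included, made up 15.6% to 17.4% of a library, and *Lcor* followed that percentage with r = 0.63 (Spearman's rho 0.59, n = 21, 0.62 without the 2 libraries farthest from its median, 0.46 with group means taken out), *Lcorl* with r = 0.62 (rho 0.60, 0.55 and 0.42).

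*Lcor* also moved with the main axis of variation among libraries and with some cell markers. It had r = -0.71 with the first principal component (rho -0.71, n = 21, -0.70 without the 2 farthest libraries, -0.65 with group means taken out), a component that held 20.8% of the variance of 2000 variable genes, *Lcor* among them. The sign of the component is arbitrary and was set to make its *WT* mean negative. With the summed level of 4 markers of meninges (*Col1a1*, *Dcn*, *Lum* and *Foxc1*) *Lcor* had r = -0.65 (rho -0.66, -0.74 and -0.58). That sum ran from 150 to 231 CPM in *WT*, from 170 to 371 in *Wapl* Δ/+, from 149 to 299 in *Nipbl* +/- and from 113 to 391 in double-heterozygote brains, with no marker at 0. With 4 endothelial markers r was -0.52 (rho -0.53, -0.36 and -0.69), with 6 progenitor markers -0.47 (rho -0.51, -0.48 and -0.31) and with 6 neuronal markers 0.37 (rho 0.23, 0.24 and 0.31). With total count *Lcor* had r = 0.07, and with the *mt-Nd3* count -0.14. *Lcorl* had r = -0.57 with the component (rho -0.58, -0.33 with group means taken out). With the markers of meninges, endothelium, progenitors and neurons *Lcorl* had r = -0.08, 0.06, -0.43 and 0.29, and with those of astrocytes 0.52. With total count *Lcorl* had r = 0.53 (rho 0.44, 0.23 without the 2 farthest libraries, 0.51 with group means taken out). The methods describe 1 way of preparing the libraries and name no batches, and these relations are descriptions of 21 points. The part of tissue makeup, gene length or total count in the level of *Lcor* or *Lcorl* was not tested.

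The genes around *Lcor* were examined next. Of 34 genes within 500 kb in the reference, 25 were in the table and 22 were tested. In *Wapl* Δ/+ brains 0 of the 22 were called (median log2 fold change 0.04, all genes 0.00), beside 2.22% of all genes. DESeq2 called 1, beside 1446 of the 30552 genes tested, and leaving out single libraries gave between 0 and 2. *Slit1*, an axon guidance ligand, has a span that lies 1.66 kb from that of *Lcor*. Its log2 fold change was 0.05 (SE 0.035). *Mir8091*, inside *Lcor*, had one of -0.82 (SE 0.38, adjusted *P* = 0.297 from edgeR) on few counts.

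In *Nipbl* +/- brains 2 of these 22 neighbours rose and 1 fell, beside 11.2% of all genes called. *Slit1* rose by 0.12 (adjusted *P* = 0.0528) and *Frat1*, a Wnt pathway protein, by 0.25 (adjusted *P* = 0.0167), and *Tm9sf3*, a membrane protein, fell by 0.15 (adjusted *P* = 0.0165), all from edgeR on the log2 scale. The call of *Slit1* was lost without *WT* replicate 2 or 4 or *Nipbl* +/- replicate 3, in one fit of all 4 groups (adjusted *P* = 0.217) and within the low *mt-Nd3* set (adjusted *P* = 0.212). In double heterozygotes over *WT*, beside 0.812% of all genes called higher, 1 of 22 rose, *Frat2*, by 0.25 (adjusted *P* = 0.0652 from edgeR), and this call was lost in 7 of the 11 fits that left out a library (those without *WT* replicate 1, 2 or 5 and double-heterozygote replicate 1, 2, 4 or 6) and within the low *mt-Nd3* set (adjusted *P* = 0.164). Around *Lcorl*, 0 of 11 tested genes within 500 kb were called by edgeR in any of the 6 comparisons. Of all genes, 11.2% were called in *Nipbl* +/- over *WT* and at most 3.28% in the other comparisons. Leaving out single libraries gave between 0 and 1 of the 11 in *Nipbl* +/- over *WT*. *Ncapg*, which overlaps it, had log2 fold changes of 0.05, 0.01 and 0.01 in *Wapl* Δ/+, *Nipbl* +/- and double-heterozygote brains over *WT*.

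**Figure D5:**
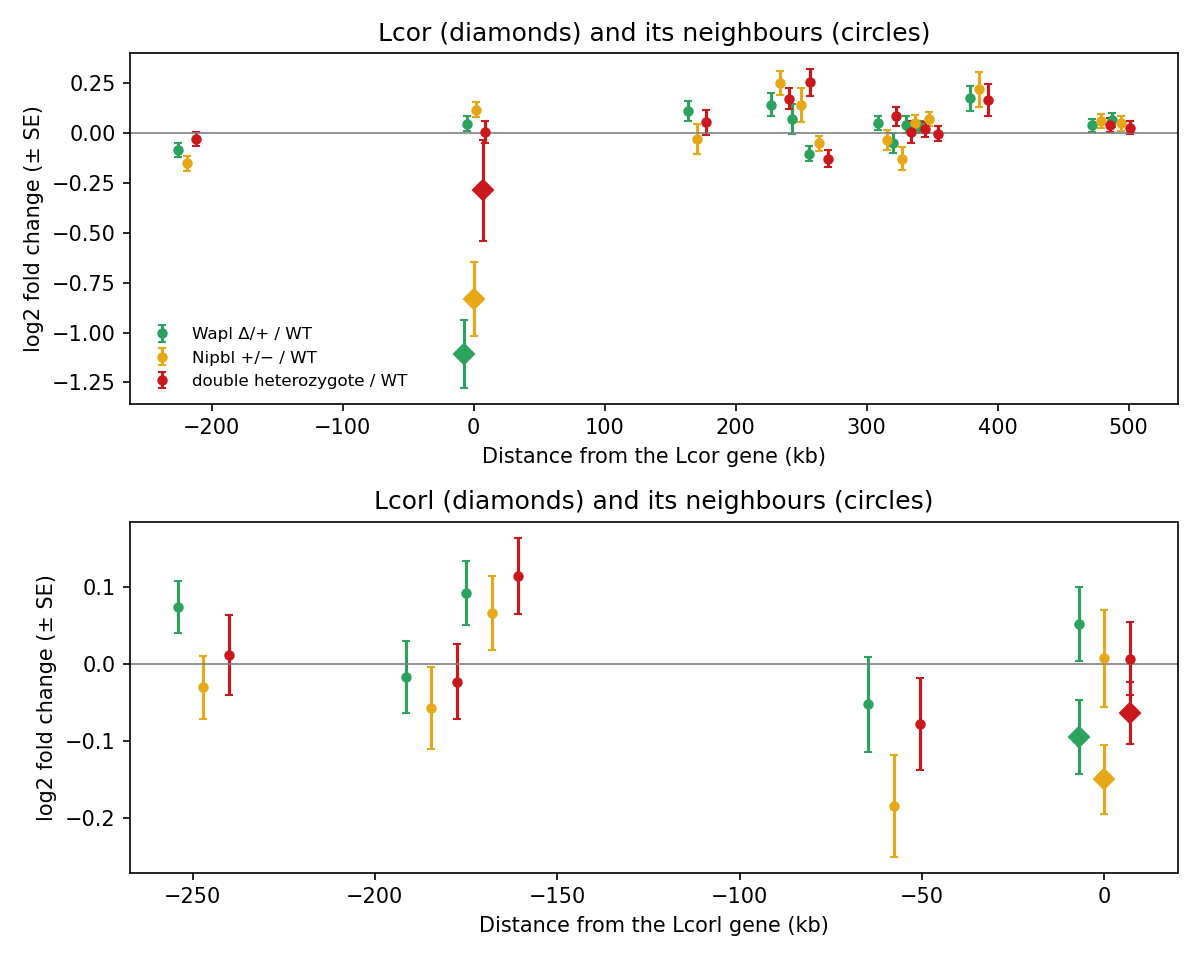
Log2 fold changes over *WT* (± SE) of *Lcor* and 13 neighbours (top) and of *Lcorl* and 5 neighbours (bottom) with at least 100 normalized counts, against distance from the gene in kb, with the 3 genotypes set slightly apart. Diamonds are the members and circles the neighbours. In the top panel the diamonds at -1.11 and -0.83 stand below all circles, which lie between -0.15 and 0.25. In the bottom panel the *Lcorl* diamonds lie within the range of the circles, -0.18 to 0.11.

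The proteins that LCOR works with were measured at the RNA level as lists, whose members were picked with earlier results of these data known. Among 13 genes of its repressor partners (the CtBP proteins, histone deacetylases and the CoREST and G9a complexes), 0 were called in *Wapl* Δ/+ brains (median log2 fold change 0.07, all genes 0.00), beside 2.22% of all genes. DESeq2 called 2 of them, beside 1446 of the 30552 genes tested. In *Nipbl* +/- brains 7 rose and 0 fell (median 0.10, all genes -0.01, with 4.25% of all genes called higher). *Rcor2*, a CoREST subunit of neural progenitors, rose by 0.42 (adjusted *P* = 0.00132 from edgeR). *Ehmt1*, *Ehmt2*, *Ctbp1*, *Hdac1*, *Hdac3* and *Kdm1a*, enzymes and a corepressor of the same machinery, rose by 0.10 to 0.15 on the log2 scale.

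Only *Rcor2*, *Ehmt1* and *Ehmt2* of these 7 kept their call in all 8 fits that left out a library. Without *Nipbl* +/- replicate 1 the calls of *Ctbp1*, *Hdac1*, *Hdac3* and *Kdm1a* were all lost, the last 3 of them held in 2 of the 8, and over these 8 fits between 3 and 7 of the 13 were called. In one fit of all 4 groups 4 were called, beside 1658 of the 30552 genes tested. Within the low *mt-Nd3* set, where 1881 of all genes were called, only *Rcor2* kept its call (adjusted *P* = 0.0277 from edgeR), with *Ehmt1* at 0.106 and *Ehmt2* at 0.118. Of the 6 progenitor markers 3 rose in *Nipbl* +/- brains (median 0.16), beside 4.25% of all genes called higher. All 3 calls were lost without *Nipbl* +/- replicate 1 and within the low *mt-Nd3* set (adjusted *P* from 0.134 to 0.331 from edgeR). In one fit of all 4 groups 1 was called, and with a block for replicate number 1, beside 1658 and 1893 of all genes. The summed progenitor markers ran from 485 to 510 CPM in *WT* and from 472 to 623 in *Nipbl* +/- brains. Their part in the values of the partner genes was not tested. In double heterozygotes over *WT*, 0 of the 13 were called by edgeR and 2 by DESeq2 (median 0.08), beside 3.28% of all genes called by edgeR. Of the 30552 genes tested, DESeq2 called 1480 there.

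Nuclear receptors, the proteins to which LCOR binds, numbered 15 and all were tested. In *Wapl* Δ/+ brains 0 were called (median -0.01, beside 2.22% of all genes), and DESeq2 called 1, beside 1446 of the 30552 genes tested. In *Nipbl* +/- brains 4 fell and 0 rose (median -0.04, with 6.96% of all genes called lower). The estrogen receptor gene *Esr1* fell by 0.83, from 49.6 to 28.1 normalized counts (adjusted *P* = 0.0198 from edgeR), and the thyroid hormone receptor gene *Thrb* fell by 0.77, from 124 to 72.9 (adjusted *P* = 0.00313). The mineralocorticoid receptor gene *Nr3c2* fell by 0.66, from 313 to 199 (adjusted *P* = 0.000242), and the glucocorticoid receptor gene *Nr3c1* by 0.47, from 543 to 393 (adjusted *P* = 0.000335). These 4 calls held in 8 of 8 fits that left out a library and in one fit of all 4 groups. The sum of 5 astrocyte markers ran from 505 to 549 CPM in *WT*, from 372 to 473 in *Nipbl* +/- and from 392 to 498 in double-heterozygote brains, with no overlap with *WT*. The sums of 5 oligodendrocyte lineage markers (199 to 220, 153 to 188 and 155 to 187 CPM) and of 5 microglia markers (52.8 to 62.7, 43.7 to 49.4 and 45.9 to 52.4 CPM) were lower in the same groups. The part of these cell types in the receptor values was not tested.

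In double heterozygotes, 2 of the 15 receptors fell against *WT* (median of the list -0.04), where 2.46% of all genes were called lower. *Nr3c2* fell by 0.45 (adjusted *P* = 0.00878 from edgeR) and *Thrb* by 0.55 (adjusted *P* = 0.0177), and both calls held in 11 of 11 fits that left out a library. *Thrb* had an adjusted *P* of 0.114 in one fit of all 4 groups and 0.142 within the low *mt-Nd3* set. None of the 15 was called by edgeR between double heterozygotes and *Nipbl* +/- or *Wapl* Δ/+ brains, where 0.00655% and 1.02% of all genes were called. In one fit of all 4 groups 1 of the 15 was called against *Wapl* Δ/+ brains, beside 576 of the 30552 genes tested.

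*Nrip1* and *Ncor1*, which encode other corepressors of nuclear receptors, fell in *Wapl* Δ/+ brains, by 0.25 each (adjusted *P* = 0.0959 and 0.0845 from edgeR), where 1.45% of all genes were called lower. Both calls were lost without any 1 of *WT* replicates 1, 2, 4 and 5 and *Wapl* Δ/+ replicates 1, 4, 5 and 7, in one fit of all 4 groups (adjusted *P* = 0.231 and 0.188) and within the low *mt-Nd3* set (adjusted *P* = 0.311 and 0.633). In *Nipbl* +/- brains *Nrip1* fell by 0.46 (adjusted *P* = 0.00649) and *Ncor1* by 0.21 (adjusted *P* = 0.0328) from edgeR. The call of *Ncor1* was lost without *Nipbl* +/- replicate 1, in one fit of all 4 groups (adjusted *P* = 0.312) and within the low *mt-Nd3* set (adjusted *P* = 0.104). In double heterozygotes over *WT*, *Nrip1* had a log2 fold change of -0.24 (edgeR adjusted *P* = 0.150) and *Ncor1* one of -0.05 (edgeR adjusted *P* = 0.826), and neither passed.

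Among the 6 core genes of PRC2, *Ezh2*, its main methyltransferase, rose in *Nipbl* +/- brains by 0.30 (adjusted *P* = 0.00639 from edgeR) and in double heterozygotes by 0.22 (adjusted *P* = 0.0496), and the other 5 were not called (medians of the 6 genes 0.04 and 0.04). Of all genes, 4.25% and 0.812% were called higher in these comparisons. The second call was lost without any 1 of *WT* replicates 1, 3 and 4 and double-heterozygote replicates 1, 4 and 6, and in one fit of all 4 groups (adjusted *P* = 0.204). Of 7 accessory subunits listed, 6 were tested, and 2 rose in *Nipbl* +/- brains: *Jarid2* by 0.21 (adjusted *P* = 0.00292 from edgeR) and *Epop* by 0.39 (adjusted *P* = 0.0290), the latter not without *Nipbl* +/- replicate 3 nor within the low *mt-Nd3* set (adjusted *P* = 0.182 from edgeR). As given above, 3 of 6 progenitor markers rose in the same comparison, in calls that were lost without *Nipbl* +/- replicate 1. Their part in the PRC2 values was not tested. In *Wapl* Δ/+ brains 0 of the 12 PRC2 genes tested were called by edgeR (medians 0.03 for core and 0.03 for accessory genes, beside 2.22% of all genes). EdgeR called 0 of all genes tested for interaction, so the lack of such a call in these lists says nothing about them. DESeq2 called 793 of the 30552 genes tested for interaction. Among them were 1 of 13 repressor partners, 2 of the other corepressors, 1 of 22 neighbours of *Lcor* and 1 of 6 neuronal markers. It called 0 of the 15 nuclear receptors and 0 of the 12 PRC2 genes.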

How the data were processed

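Poly(A) RNA of 21 female E17.5 whole brains was sequenced as 101-bp paired-end reads. According to the methods and the submitters' processing notes, the authors trimmed reads with cutadapt 2.4, mapped them to mm10 (GRCm38.p6) with STAR 2.5.3a and counted them on genes with featureCounts of Subread 1.6.4, and they deposited raw counts per gene without normalization. Which annotation and strand setting were used, and how reads shared by genes were treated, is not given in the sources used here. A library that the authors left out is not analysed here.

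The quasi-likelihood test of edgeR 4.0.16 (R 4.3.3) was run after TMM normalization. The filter was a sum of 10 normalized counts over all 21 libraries, and a Benjamini-Hochberg adjusted *P* below 0.10 over all genes past it was a call. The study's own threshold and filter were kept, and its tool, DESeq2 (1.42.0), was an alternative. A comparison of 2 groups used only their libraries, while the interaction used all 4 groups. Standard errors are the size of the log2 fold change divided by the square root of F. The fits were tested on simulated data with known changes. Low-count precision was read from exact Poisson intervals, which cover counting error only.

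Genes named are *Lcor*, *Lcorl*, *Wapl*, *Nipbl*, overlapping gene models, called genes of the lists (1 list member is not reported here), and for each member the 5 genes with the highest and 3 with the lowest correlation. Members, lists and rules were chosen with earlier results of these data known. Gene spans, the principal component and the relations with library measures were added after values were seen, as were counts of list genes under the alternatives. Alternatives were DESeq2, its size factors, 2 other filters, all groups in one fit, a block for replicate number, a term for the *mt-Nd3* set (high from 20 counts), each set alone and leaving out each library. Gene spans came from a RefSeq table of GRCm38.p6 that matched 78.8% of the genes tested.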

Additional observations from a re-analysis of the deposited data

How the results depend on the processing

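Every log2 fold change of *Lcor* kept its direction under all alternatives run, and its range over fits that left out 1 library was -1.26 to -0.99 (*Wapl* Δ/+ over *WT*), -1.09 to -0.71 (*Nipbl* +/- over *WT*), -0.56 to -0.13 (double over *WT*), 0.26 to 0.80 (double over *Nipbl* +/-), 0.55 to 0.97 (double over *Wapl* Δ/+) and 1.37 to 1.90 (interaction). *Lcorl* in *Nipbl* +/- over *WT* ranged from -0.17 to -0.11 in those fits, had -0.12 (adjusted *P* = 0.251) in one fit of all groups and -0.16 (adjusted *P* = 0.140) in the low *mt-Nd3* set, and its difference between double heterozygotes and *Wapl* Δ/+ brains turned to -0.012 in the high set. Same-numbered libraries correlated between -0.21 and 0.30 over 22 pairs, 6 of them above 0.1, so the numbers were not taken to pair the brains. With the replicate block *Lcorl* had -0.16 (adjusted *P* = 0.194) in *Nipbl* +/- brains and *Lcor* -0.17 in double heterozygotes over *WT*, and 1991, 1893, 535 and 59 genes were called in *Wapl* Δ/+, *Nipbl* +/- and double over *WT* and in double over *Nipbl* +/-. With the block 1 of the 13 partner genes was called in *Nipbl* +/- brains in place of 7, and *Slit1* had an adjusted *P* of 0.350. Genes called in all varied widely. The 677 of *Wapl* Δ/+ over *WT* became 1446 with DESeq2, 7 in one fit of all groups, 305 with a term for the *mt-Nd3* set, 47 in the low and 278 in the high set, and 9 (without *WT* replicate 2) to 1534 (without *Wapl* Δ/+ replicate 2). The 3422 of *Nipbl* +/- over *WT* became 1658 in one fit of all groups, 1881 in the low set and 1828 (without *Nipbl* +/- replicate 1) to 4788. The 1001 of double over *WT* became 602 in one fit of all groups, 1 in the high set and 454 (without *WT* replicate 4) to 2504 (without double-heterozygote replicate 5). The 2 of double over *Nipbl* +/- became 5 with DESeq2, 1 with the *mt-Nd3* term, 1 in the low set and 1 to 2 without single libraries. The 311 of double over *Wapl* Δ/+ became 626 with DESeq2, 576 in one fit of all groups, 162 with the *mt-Nd3* term, 24 in the low set, 29 in the high set and 163 (without *Wapl* Δ/+ replicate 3) to 449. The 0 for interaction became 793 with DESeq2, 253 without *Wapl* Δ/+ replicate 2 and 945 without double-heterozygote replicate 6, so 0 to 945. The cause of these shifts was not tested. Of the 5 genes most like *Lcor*, 2 stayed among the first 5 by Spearman's rho and 2 with group means taken out, and of those most like *Lcorl* 1 and 1. *Lcor* had 47 to 244 raw counts per library, so the level in a single library is known only to within the counting intervals drawn.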
